A study of Mus musculus with 13 samples.

Results

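The 6 genes described here act in the urea cycle: Nags, Cps1, Otc, Slc25a15, Ass1 and Asl. They were taken by gene symbol from tables of 27141 genes, and all 6 were among the 19884 genes with enough counts to be tested. The cells were hepatocytes from wild-type (WT) mouse liver damaged by CCl4, called dHeps in the study, which describes the mice as C57BL/6. Every culture ran for 16 days in serum-free Hepatocyte Maintenance Medium, with the solvent DMSO, with the cocktail 5C, or with 5C lacking a single compound. The compound removed was the ROCK inhibitor GSK429286A in 5C-G, the protein kinase D inhibitor CID755673 in 5C-C, the AMPK activator ETC-1002 in 5C-E, the adenylate cyclase activator forskolin in 5C-F and Salidroside in 5C-S. There were 2 libraries in each group, here called A and B, and 1 library for 5C-S. The study describes its replicates as separate biological ones, while the labels do not say whether the libraries of a group came from separate mice or only from separate cultures, so p-values measure the spread between these libraries. In every group the cells came from CCl4-injured liver, and the series has no group of uninjured hepatocytes.

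The urea cycle turns ammonia, which is toxic, into urea that can be excreted, and it runs in full mainly in hepatocytes. Its first steps lie in the mitochondrion, where Cps1 joins ammonia and bicarbonate into carbamoyl phosphate and Otc transfers that group to ornithine to make citrulline. Nags makes N-acetylglutamate, without which Cps1 is inactive, and Slc25a15 exchanges ornithine for citrulline across the inner mitochondrial membrane. In the cytosol Ass1 joins citrulline to aspartate, and Asl splits the product into arginine and fumarate. The genes are used as measures of a working hepatocyte.

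Libraries held between 30195867 and 45491932 counts. Levels are given in FPKM, the authors' fragments per kilobase of gene and per library size, and are compared between genes only on that scale. Fold changes are log2 values from edgeR's quasi-likelihood test on the counts, and a gene passed when its Benjamini-Hochberg adjusted p over all tested genes was under 0.05. The hepatocyte label was checked with 7 markers, whose summed level ranged from 3531 to 22780 FPKM over the 13 libraries. Markers of other cell types were present too: the summed level of 9 macrophage markers ran from 284.8 to 4741 FPKM, while of 5 endothelial markers Pecam1, Cdh5, Tek and Stab2 reached at most 0.453 FPKM in any library and Kdr ran from 3.1 to 23 FPKM. The summed level of 8 stellate cell and fibroblast markers was 963.3 to 975.5 FPKM in DMSO, 1158 to 1169 FPKM in 5C, 1155 to 1312 FPKM in 5C-G, 1282 to 1498 FPKM in 5C-C, 1555 to 1719 FPKM in 5C-E, 743.5 to 800.3 FPKM in 5C-F and 1399 FPKM in 5C-S. This sum is mostly Col1a1, Col3a1 and Dcn. Of the 8 markers, 1 rose and 1 fell in 5C against DMSO. Against 5C, 3 rose and 3 fell in 5C-G, 3 and 4 in 5C-C, 3 and 2 in 5C-E and 0 and 2 in 5C-F. That of 5 cholangiocyte markers was 2598 to 2958 FPKM in DMSO, 1639 to 1976 FPKM in 5C, 3166 to 3422 FPKM in 5C-F and 1456 to 2437 FPKM in the other groups. The part of these cells in the results was not tested. In these bulk libraries, fewer cells of a type and less RNA per cell cannot be told apart.

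Mouse promoter sequences from RefSeq (GRCm38.p6, 250 bases before to 50 after the start) were found for 4 of the 6 genes: Otc, Ass1, Nags and Slc25a15, the last with 2 windows. The windows of Otc, Nags and Ass1 are shown because Otc had the lowest level of the 6 genes and because Nags and Ass1 had the closest pattern of any pair of them. Capitals mark matches on either strand to TTNNGNAA (C/EBP), CAAAG (the core of an HNF4 site) and TGACG (the core of a cAMP response element), the letters searched along with TGACGTCA, TATAAA and the glucocorticoid receptor motif. No 2 of the marked matches overlap.
Otc, chrX:10252055-10252354, plus strand: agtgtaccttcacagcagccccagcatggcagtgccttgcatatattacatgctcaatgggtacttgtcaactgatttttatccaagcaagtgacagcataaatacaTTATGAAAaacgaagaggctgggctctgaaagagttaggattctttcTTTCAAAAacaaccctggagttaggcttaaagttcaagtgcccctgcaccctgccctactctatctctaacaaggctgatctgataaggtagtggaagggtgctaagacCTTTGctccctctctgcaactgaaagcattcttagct
Nags, chr11:102145263-102145562, plus strand: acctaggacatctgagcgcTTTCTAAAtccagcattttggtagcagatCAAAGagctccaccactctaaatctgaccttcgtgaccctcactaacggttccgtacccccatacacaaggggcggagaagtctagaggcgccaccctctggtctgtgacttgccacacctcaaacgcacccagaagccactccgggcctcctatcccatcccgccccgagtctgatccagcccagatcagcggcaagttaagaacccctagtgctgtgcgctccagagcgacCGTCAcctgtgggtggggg
Ass1, chr2:31470020-31470319, plus strand: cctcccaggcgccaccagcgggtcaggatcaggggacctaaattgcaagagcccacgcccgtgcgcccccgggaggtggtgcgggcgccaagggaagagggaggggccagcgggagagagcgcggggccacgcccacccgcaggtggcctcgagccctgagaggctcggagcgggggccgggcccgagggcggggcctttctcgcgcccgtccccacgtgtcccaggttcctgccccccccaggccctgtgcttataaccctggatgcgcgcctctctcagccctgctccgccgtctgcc

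In the Otc window the C/EBP letters began at -143 and -96 and the HNF4 core at 14, counted from the start. In the Nags window the C/EBP letters began at -231, the HNF4 core at -202 and the core of a cAMP response element at 32. None of the letters searched were in the window of Ass1 or in either window of Slc25a15. Among 32851 promoter windows of the same length, 40.7% held the C/EBP letters, 53.9% CAAAG, 20.8% TGACG, 13.6% TATAAA, 1.8% TGACGTCA and 0.5% the glucocorticoid receptor motif. These matches are a description of the letters and not of binding. The GC content was 44.3% in the Otc window, 57.7% in the Nags window and 74.0% in the Ass1 window.

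The genes lie on separate chromosomes of GRCm39 and all are protein coding. Cps1 spans chr1:67161988-67270418 on the plus strand with 38 exons, and Otc chrX:10118503-10187265 on the plus strand with 10 exons. Ass1 spans chr2:31352181-31410862 on the plus strand with 16 exons, and Asl chr5:130040099-130058088 on the minus strand with 16 exons. Nags spans chr11:102036339-102040303 on the plus strand with 7 exons, and Slc25a15 chr8:22865516-22889423 on the minus strand with 7 exons. An antisense lncRNA overlaps Cps1, Asl, Nags and Slc25a15 in the annotation, and whether counting used strand is not given in the sources used here. Reads of such pairs could therefore be assigned to the wrong partner.

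Cps1, the entry enzyme of the cycle, fell without GSK429286A, without CID755673 and without ETC-1002. Asl rose without GSK429286A, CID755673 or forskolin, Ass1 fell without CID755673 or ETC-1002, Nags rose without forskolin and Otc fell without CID755673, but each of these calls, and that of Cps1 without ETC-1002, was lost under some other setting given with the gene. Slc25a15 passed in no comparison by edgeR without an offset for GC content. In 5C against DMSO 0 of the 6 genes passed by edgeR, while 6.34% of all tested genes did, with 0 at an unadjusted p under 0.05 and 0 passing by DESeq2. The counts were 2 of 6 in 5C-G against 5C (25.6% of all tested genes), 4 of 6 in 5C-C (35.8%), 2 of 6 in 5C-E (2.94%) and 2 of 6 in 5C-F (10.7%). With a log2 fold change beyond 1 also required, the counts by edgeR were 1, 2, 1 and 0 of 6 in these removals, against 13.1%, 20.2%, 1.96% and 4.84% of all tested genes, and in 5C against DMSO 4.55% of all tested genes did so. The median log2 fold change of the 6 genes lay furthest from 0 in 5C-E, at -0.84, where the median of all genes was 0.01.

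**Figure D1:**
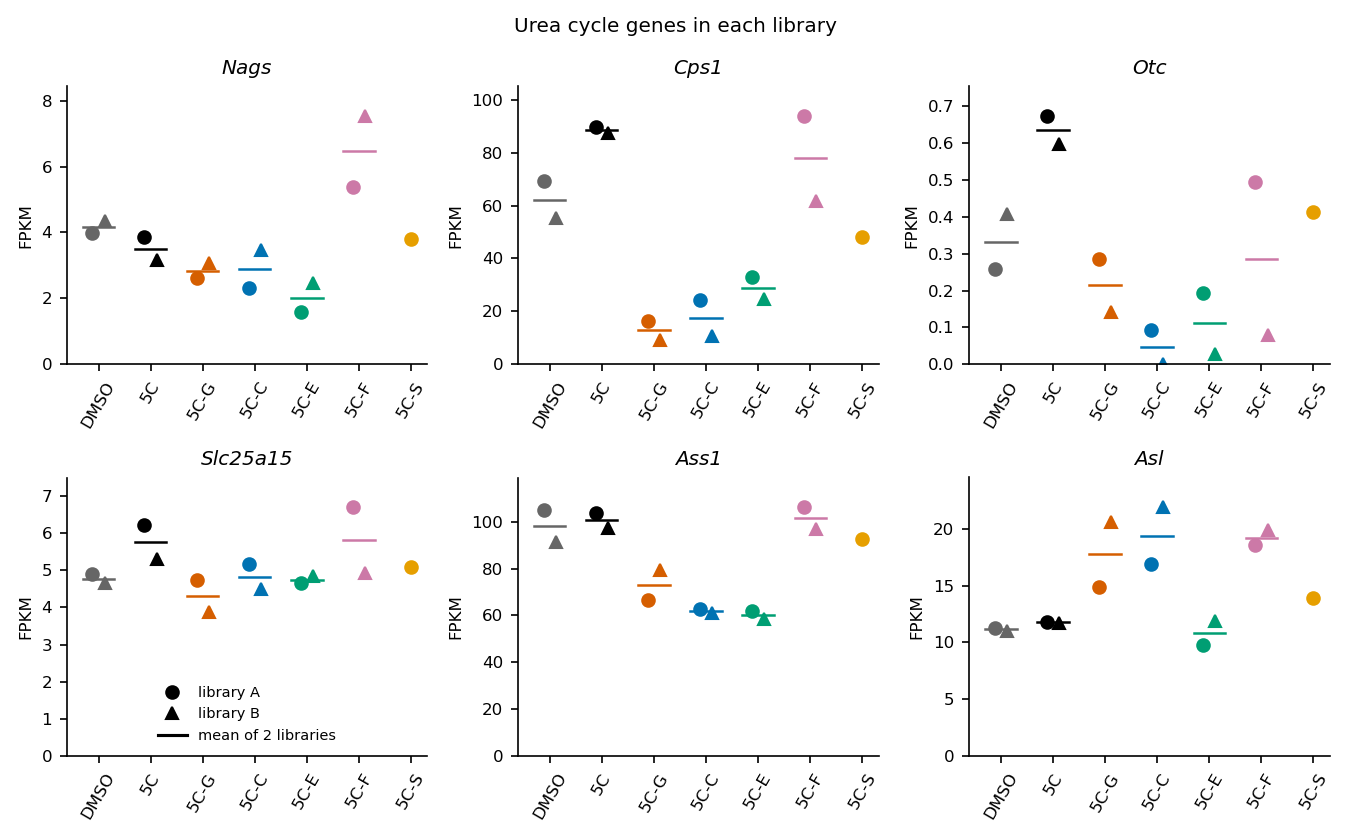
FPKM of each urea cycle gene (vertical axis, from 0, with its own scale in each panel) in the 13 libraries, by group; circles are library A, triangles library B and lines the mean of 2 libraries. Cps1 is at most 33.1 FPKM in the libraries of 5C-G, 5C-C and 5C-E and at least 48.0 FPKM in the others.

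Nags, which supplies the activator of Cps1, was weakly expressed. Its level was 3.98 and 4.34 FPKM in DMSO and 3.85 and 3.17 FPKM in 5C. It was 2.62 and 3.07 FPKM in 5C-G, 2.31 and 3.47 FPKM in 5C-C, 1.59 and 2.46 FPKM in 5C-E, 5.38 and 7.54 FPKM in 5C-F and 3.81 FPKM in the 5C-S library. Both 5C-F libraries lay above all others and both 5C-E libraries below all of DMSO, 5C, 5C-F and 5C-S. In 5C-F the log2 fold change against 5C was 0.97 ± 0.29 (SE; adjusted p = 0.0432). This call did not survive the removal of any single library of 5C or 5C-F, where the value ran from 0.76 to 1.16, with adjusted p of 0.153 without 5C A, 0.258 without 5C B, 0.0538 without 5C-F A and 0.233 without 5C-F B. It was also lost with total counts only (0.88, adjusted p = 0.0682) and both limma fits (0.71, 0.0818 and 0.85, 0.0999). In 5C-E the fold change against 5C was -0.86 ± 0.30 and did not pass (adjusted p = 0.158), whereas against DMSO it was -1.19 ± 0.30 and passed (adjusted p = 0.0165). The latter was lost without DMSO A (-1.21, adjusted p = 0.0889), DMSO B (-1.12, 0.126) or 5C-E A (-0.86, 0.254), and with both limma fits (-0.79, 0.0623 and -1.03, 0.0556).

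Cps1, the enzyme that commits ammonia to the cycle, moved furthest among the 5 genes with over 100 counts in every library. Its level was 69.3 and 55.3 FPKM in DMSO and 89.7 and 87.3 FPKM in 5C. It was 16.5 and 9.08 FPKM in 5C-G, 24.1 and 10.8 FPKM in 5C-C, 33.1 and 24.8 FPKM in 5C-E, 94.0 and 61.8 FPKM in 5C-F and 48.0 FPKM in 5C-S. The libraries without GSK429286A, CID755673 or ETC-1002 thus lay below every other library, and the ranges of 5C and 5C-F overlapped. Against 5C the log2 fold change was -2.68 ± 0.32 in 5C-G (adjusted p = 2.05e-05), -2.19 ± 0.32 in 5C-C (0.000103) and -1.68 ± 0.31 in 5C-E (0.00492). In 5C-F it was -0.08 ± 0.30 (adjusted p = 0.914).

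The fall of Cps1 in 5C-G and 5C-C passed under every setting tried, including the removal of each library, with values between -3.06 and -1.74. In 5C-E it was lost without 5C-E B (-1.49, adjusted p = 0.157) and with limma on log2(FPKM + 1) (-1.59, 0.0643) or log2(FPKM + 0.1) (-1.62, 0.0683). Cps1 was also lower than in DMSO, at -2.25 ± 0.32 in 5C-G (adjusted p = 0.000511), -1.76 ± 0.31 in 5C-C (0.000362) and -1.25 ± 0.31 in 5C-E (0.0141). The last of these was lost without DMSO A (-1.04, adjusted p = 0.166), 5C-E A (-1.43, 0.0517) or 5C-E B (-1.05, 0.192), and with both limma fits (-1.08, 0.122 and -1.11, 0.125). For 5C against DMSO the value was 0.43 ± 0.30 and did not pass (adjusted p = 0.523). It passed only in a fit of these 4 libraries alone, with 0.43 and an adjusted p of 0.00187. Summed hepatocyte markers were 11550 to 11720 FPKM in 5C, 6896 to 8330 FPKM in 5C-G, 5337 to 5861 FPKM in 5C-C, 3531 to 4053 FPKM in 5C-E and 18380 to 22780 FPKM in 5C-F. Of the 7 markers, 4 fell and 1 rose in 5C-G against 5C, 3 fell and 2 rose in 5C-C, 4 fell in 5C-E and 5 rose in 5C-F. Over all tested genes 25.6%, 35.8%, 2.94% and 10.7% passed in the same order, either way. The median log2 fold change of the 7 markers was -0.99 in both 5C-G and 5C-E, -0.22 in 5C-C and 0.85 in 5C-F. The sum is mostly Alb and Apoa1, and the mean of Apoa1 was 893.2 FPKM in 5C and 2481 FPKM in 5C-G. The part of these markers in the Cps1 result was not tested.

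Otc, the next enzyme, was close to absent in all cultures. It had 40 and 54 counts in DMSO, 96 and 78 in 5C, 39 and 22 in 5C-G, 12 and 0 in 5C-C, 30 and 4 in 5C-E, 81 and 14 in 5C-F and 60 in 5C-S. The highest of these, in 5C A, was 0.674 FPKM, whereas Cps1 reached 89.7 FPKM in the same library. In 5C-C B the 0 counts allow up to 3 counts, or 0.0155 FPKM, by counting error only. Both 5C libraries lay above those of every other group except 5C-F, whose library A had 81 counts but 0.493 FPKM. Against 5C the log2 fold change was -3.71 ± 1.18 in 5C-C (adjusted p = 0.0206), a fitted value that rests on 12 and 0 counts. It was lost without 5C A (-3.64, adjusted p = 0.0653), 5C B (-3.75, 0.0556) or 5C-C B (-2.62, 0.117), and without 5C-C A the fitted value was -9.54. In 5C-E the value was -2.56 ± 1.08 (adjusted p = 0.270), and it passed with no filter (-2.54, 0.0251) or with only the 2 groups compared (-2.55, 0.0279). It was -1.46 ± 1.03 in 5C-G (0.330), -1.03 ± 1.01 in 5C-F (0.566) and 0.86 ± 1.01 in 5C against DMSO (0.743). With SE of about 1 log2 unit, smaller changes of Otc could not be resolved in these libraries.

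Slc25a15, the ornithine and citrulline carrier, was the steadiest of the 6 genes. Its level was 4.91 and 4.66 FPKM in DMSO, 6.21 and 5.31 FPKM in 5C, 4.75 and 3.88 FPKM in 5C-G and 5.17 and 4.49 FPKM in 5C-C. It was 4.65 and 4.84 FPKM in 5C-E, 6.70 and 4.93 FPKM in 5C-F and 5.10 FPKM in 5C-S. The mean of the highest group was 1.35 times that of the lowest, compared with 6.91 times for Cps1, and most neighbouring groups overlapped. The log2 fold changes ran from -0.35 ± 0.20 in 5C-E against 5C (adjusted p = 0.459) to 0.31 ± 0.20 in 5C-F against DMSO (0.336). With the GC and length offset Slc25a15 passed as higher against DMSO in 5C-C (0.50, adjusted p = 0.0338) and in 5C-F (0.52, 0.0491). Its paralog Slc25a2 had 0 to 21 counts per library and passed in no comparison.

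Ass1 joins citrulline to aspartate, the step that brings in the second nitrogen, and was the most abundant of the 6 genes in every library. Its level was 105.0 and 91.3 FPKM in DMSO, 103.8 and 97.5 FPKM in 5C, 106.2 and 96.8 FPKM in 5C-F and 92.5 FPKM in 5C-S. It was 66.4 and 79.5 FPKM in 5C-G, 62.7 and 61.1 FPKM in 5C-C and 61.7 and 58.5 FPKM in 5C-E. All 6 libraries of these removals lay at or below 79.5 FPKM, and all others at or above 91.3 FPKM. Against 5C the log2 fold change was -0.81 ± 0.18 in 5C-E (adjusted p = 0.0157), -0.54 ± 0.18 in 5C-C (0.0239) and -0.32 ± 0.18 in 5C-G (0.202). The last passed with total counts only (-0.46, adjusted p = 0.0452) and with both limma fits (-0.46, 0.0294 and -0.47, 0.0329). The calls in 5C-E and 5C-C were lost when any library of the groups compared was left out. In 5C-E the adjusted p was then 0.161 without 5C A, 0.141 without 5C B, 0.0882 without 5C-E A and 0.261 without 5C-E B, with values from -0.82 to -0.78. In 5C-C it was 0.123, 0.102, 0.0804 and 0.0814 without 5C A, 5C B, 5C-C A and 5C-C B, with values from -0.55 to -0.51. Ass1 was also lower than in DMSO in 5C-E, at -0.85 ± 0.18 (adjusted p = 0.00378), and in 5C-C, at -0.57 ± 0.18 (0.0160). Leaving out DMSO A ended both (-0.71, adjusted p = 0.107 in 5C-E and -0.44, 0.193 in 5C-C), as did leaving out 5C-E B (-0.82, 0.0613), 5C-C A (-0.54, 0.0628) or 5C-C B (-0.59, 0.0608).

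Asl, which releases arginine and fumarate, took the opposite course in several removals. Its level was 11.3 and 11.0 FPKM in DMSO, 11.8 and 11.7 FPKM in 5C, 9.75 and 11.8 FPKM in 5C-E and 13.9 FPKM in 5C-S. It was 14.9 and 20.6 FPKM in 5C-G, 16.9 and 21.9 FPKM in 5C-C and 18.6 and 19.9 FPKM in 5C-F. The 6 libraries without GSK429286A, CID755673 or forskolin lay above all others. Against 5C the log2 fold change was 0.89 ± 0.21 in 5C-C (adjusted p = 0.00349), 0.81 ± 0.21 in 5C-F (0.0237) and 0.75 ± 0.21 in 5C-G (0.0152). The ratio of Ass1 to Asl in FPKM was 8.32 to 8.82 in 5C, 3.85 to 4.46 in 5C-G, 2.79 to 3.72 in 5C-C, 4.88 to 5.72 in 5C-F, 4.94 to 6.33 in 5C-E, 6.65 in 5C-S and 8.29 to 9.30 in DMSO.

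Fold changes varied with the base composition of the transcripts in these libraries. Across 12935 genes, fold change and GC content of the transcript had a Spearman correlation of 0.50 in 5C-C, 0.46 in 5C-E, 0.44 in 5C-G and 0.35 in 5C-F against 5C, given as a description over genes that share libraries. Between the 2 libraries of a group it reached 0.54 in 5C-E and 0.52 in 5C-F. The transcripts of Nags (59.7%), Asl (54.5%) and Ass1 (54.3%) have more GC than those of Slc25a15 (47.9%), Cps1 (46.6%) and Otc (41.4%). With fitted offsets for GC content and transcript length, the change of Asl was 0.29 in 5C-G (adjusted p = 0.207) and 0.25 in 5C-C (0.242), so neither passed, while that in 5C-F was 0.50 and still passed. With the same offset, Nags passed as lower in 5C-G (-0.78, adjusted p = 0.0220), 5C-C (-1.0, 0.00396) and 5C-E (-1.17, 0.00740), and its rise in 5C-F no longer passed (0.58, 0.117). Ass1 was then lower in 5C-G too (-0.86, adjusted p = 0.00104), and its change in 5C-C was -1.26 (4.25e-05) against 5C and -1.25 (2.50e-05) against DMSO. Cps1 kept its calls in 5C-G, 5C-C and 5C-E.

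Leaving out single libraries also ended calls for Asl. In 5C-G the call was lost without 5C A (0.73, adjusted p = 0.103), 5C B (0.71, 0.108) or 5C-G B (0.39, 0.262), and in 5C-C without 5C-C B (0.66, 0.0539). In 5C-F it was lost without 5C A (0.79, adjusted p = 0.158), 5C B (0.83, 0.152), 5C-F A (0.81, 0.0671) or 5C-F B (0.80, 0.0954), and with both limma fits (0.66, 0.0551 and 0.70, 0.0561). With only the 2 groups compared the call in 5C-G was lost too (0.75, adjusted p = 0.0528). Against DMSO, Asl was higher in 5C-C (0.89 ± 0.21, adjusted p = 0.00328), 5C-F (0.81 ± 0.21, 0.0168) and 5C-G (0.75 ± 0.21, 0.0276). The removal of 5C-C B ended the first (0.66, 0.0522). The second was lost without DMSO A (0.85, 0.115), DMSO B (0.79, 0.130), 5C-F A (0.81, 0.0655) or 5C-F B (0.80, 0.0631), and the last without DMSO A (0.73, 0.191), DMSO B (0.73, 0.165) or 5C-G B (0.39, 0.387). That call in 5C-G was lost too with both limma fits (0.61, 0.0617 and 0.65, 0.0614), with only the 2 groups compared (0.74, 0.0810) and with the offset (0.37, 0.137), as was the one in 5C-C with the offset (0.34, 0.107).

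**Figure D2:**
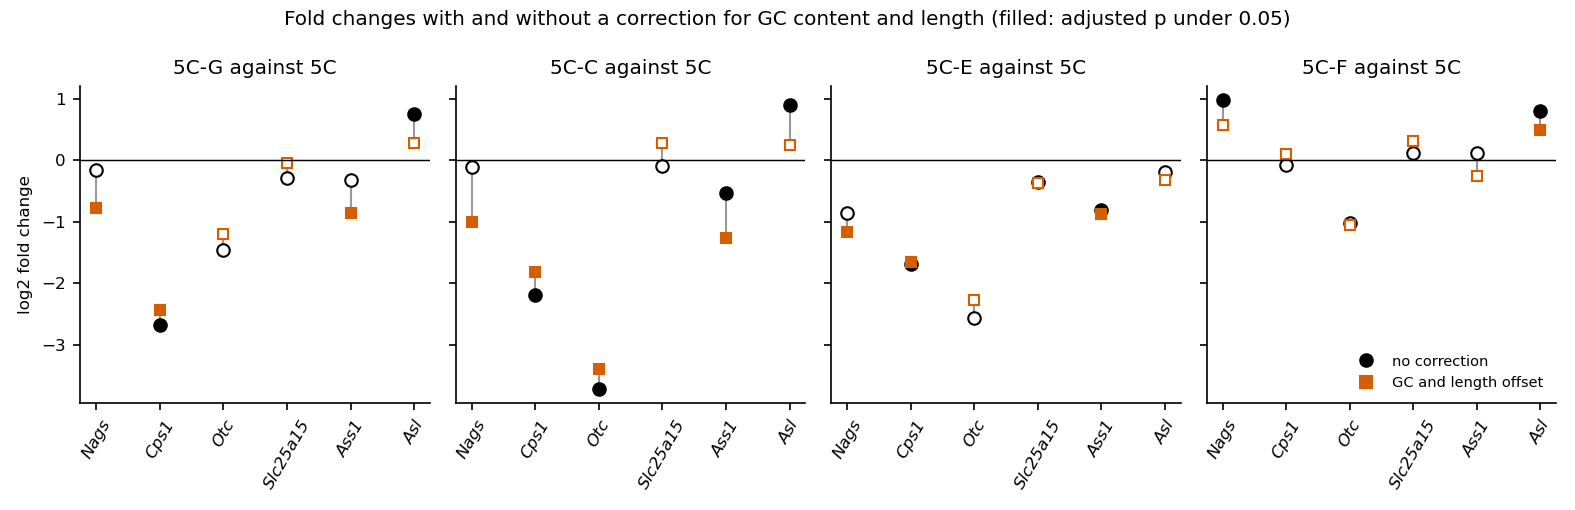
Log2 fold change of each urea cycle gene against 5C for 4 removals, without a correction (circles) and with offsets for GC content and transcript length (squares); filled symbols passed at an adjusted p under 0.05. Cps1 keeps its calls with the offset, while Asl goes from 0.89 to 0.25 in 5C-C and Nags from -0.11 to -1.0.

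Marker levels are set beside the 6 genes here. Across the 13 libraries, which share their groups, the median correlation with single hepatocyte markers on the log2 CPM scale was 0.69 for Ass1, 0.69 for Nags, 0.63 for Cps1, 0.54 for Slc25a15, 0.31 for Otc and 0.19 for Asl. The same median with macrophage markers was 0.43 for Asl, 0.29 for Nags, 0.22 for Ass1, -0.03 for Otc, -0.22 for Slc25a15 and -0.33 for Cps1. Single markers spread widely, from -0.21 to 0.96 for Cps1 with hepatocyte markers and from -0.93 to 0.31 for Asl with stellate cell and fibroblast markers. The summed macrophage level was 2597 and 2612 FPKM in DMSO, 284.8 to 312.7 FPKM in 5C, 3056 to 4741 FPKM in 5C-G, 720.9 to 1226 FPKM in 5C-C, 451.2 to 576.3 FPKM in 5C-E, 905.2 to 1200 FPKM in 5C-F and 371.4 FPKM in 5C-S. Of the 9 markers, 8 fell in 5C against DMSO, and against 5C 8 rose in both 5C-G and 5C-F, 6 in 5C-C and 1 in 5C-E. Over all tested genes 6.34%, 25.6%, 10.7%, 35.8% and 2.94% passed in the same order, either way. The Kupffer cell marker Clec4f had 0 to 75 counts per library. In DMSO and 5C-G, the groups with the most macrophage marker RNA, Cps1 was at least 55.3 FPKM and at most 16.5 FPKM. Their summed hepatocyte markers differed too, at 11230 to 12460 FPKM in DMSO and 6896 to 8330 FPKM in 5C-G. The part of macrophage RNA in these levels was not tested.

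**Figure D3:**
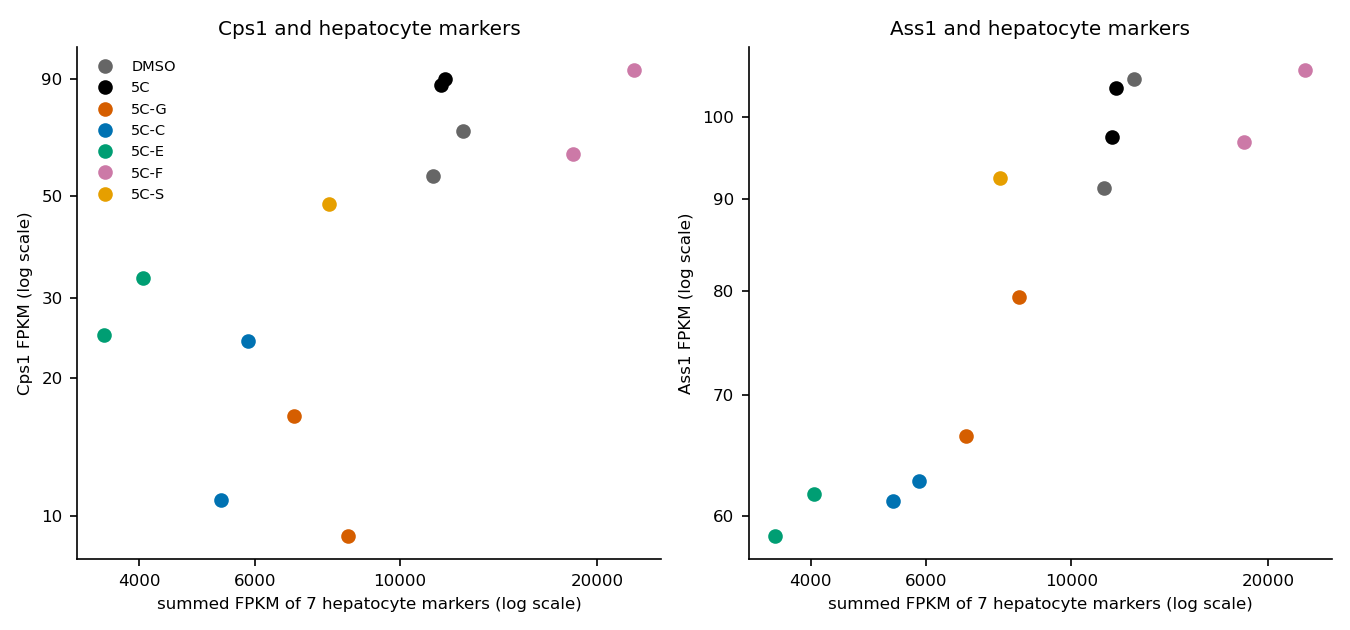
Cps1 (left) and Ass1 (right) against the summed level of 7 hepatocyte markers, all in FPKM on log axes, with a point per library coloured by group. The 5C-E points lie furthest left at 3531 to 4053 FPKM of markers, and the sum is mostly Alb and Apoa1.

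The 5C-S group had 1 library, so its values carry no replicate check and no p-value. Relative to 5C the log2 difference was -0.90 for Cps1, -0.62 for Otc, -0.19 for Slc25a15, -0.14 for Ass1, 0.11 for Nags and 0.23 for Asl. Only Nags lay between the 5C libraries. None of the 6 genes was beyond 1 log2 unit, as 15.4% of all tested genes were.

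Set against DMSO rather than 5C, 3 of the 6 genes passed in 5C-E (8.62% of all tested genes), 3 in 5C-C (37.1%), 2 in 5C-G (14.5%) and 1 in 5C-F (14.5%). These comparisons share the DMSO libraries, and those above share the 5C libraries. The genes that passed in 5C-E were Cps1, Ass1 and Nags, all of them lower. In 5C-C Cps1 and Ass1 were lower and Asl higher, in 5C-G Cps1 was lower and Asl higher, and in 5C-F Asl was higher. Otc in 5C-C did not pass by edgeR (-2.85, adjusted p = 0.065). It passed as lower with DESeq2 (-2.80, 0.0417) and with no filter (-2.82, 0.0029), on 12 and 0 counts in 5C-C. With the GC and length offset, Nags passed as lower than in DMSO in 5C-G (-0.97, adjusted p = 0.0146) and 5C-C (-1.19, 0.000844), and Ass1 in 5C-G (-0.84, 0.00392), while Asl passed in neither.

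**Figure D4:**
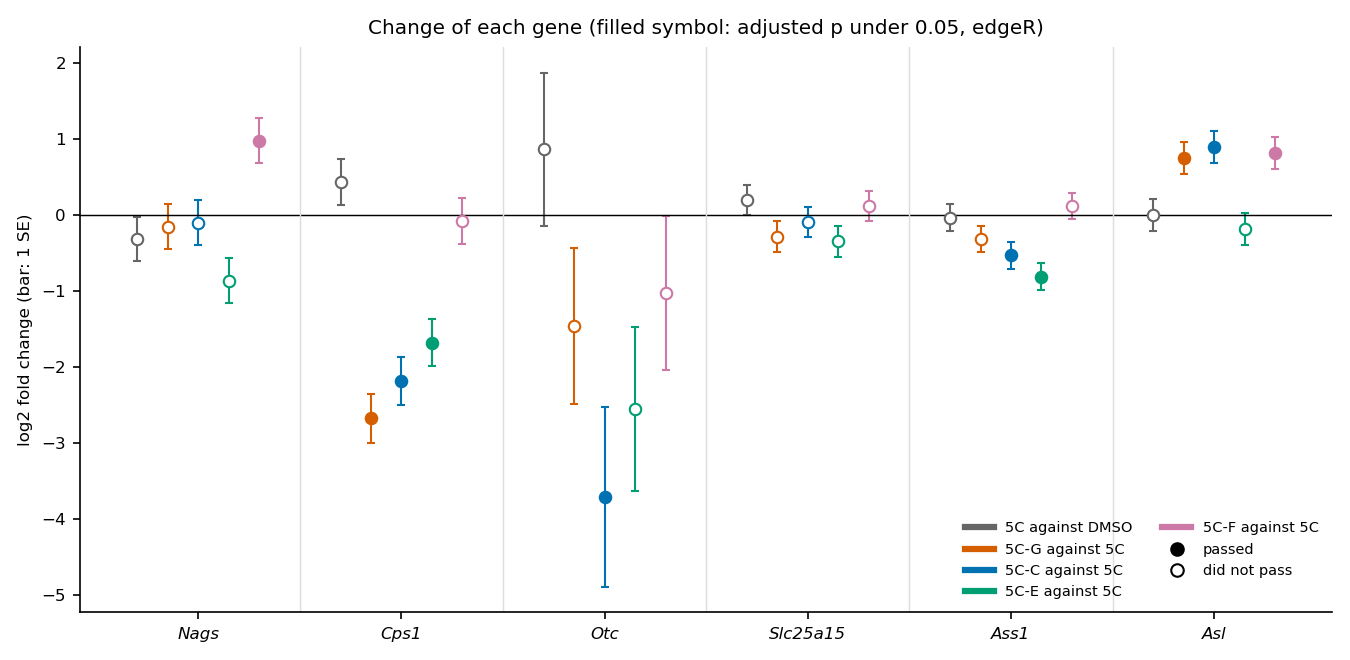
Log2 fold change with 1 SE of the 6 genes in 5C against DMSO and in 4 removals against 5C, from edgeR; filled symbols passed at an adjusted p under 0.05. Cps1 is lower in 3 removals, Asl is higher in 3, and the bars of Otc are the widest.

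Within the cycle, the 6 genes did not share a single pattern on the log2 CPM scale, which carries no correction for GC content. The highest correlation of log2 CPM over the 13 libraries was that of Ass1 with Nags (r = 0.79), followed by Cps1 with Ass1 (0.68) and Cps1 with Otc (0.66). Asl went against Otc (-0.42) and Cps1 (-0.41). These values describe libraries that share groups and depth and are not tests. With the GC and length offset, Cps1, Ass1 and Nags each passed as lower in 5C-G, 5C-C and 5C-E against 5C. Asl then passed in neither 5C-G nor 5C-C. Among 10372 other genes with a mean log2 CPM of at least 3, those closest to Cps1 were Tmem56 (r = 0.98), Prox1 (0.97), a transcription factor of hepatocytes, and Prkaa2 (0.97), a catalytic subunit of AMPK. Closest to Ass1 were Apoh (0.96) and Cyp2c68 (0.96), and closest to Nags were Proc (0.96), F12 (0.93) and Serpinf2 (0.93), which encode blood proteins made by the liver. Asl was closest to Hn1 (0.99), Cib1 (0.98) and Eif6 (0.98), Slc25a15 to Chac2 (0.92), Tram1 (0.91) and Wdr73 (0.88), and Otc to Rfk (0.95), Snap29 (0.94) and Aktip (0.94). The values of Otc rest on 0 to 96 counts per library. By group means its 3 closest genes ranked only 22, 31 and 10.

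Nitrogen and bicarbonate are fed into the cycle by enzymes and carriers around it. Of 12 such genes, 1 fell in 5C against DMSO, 1 fell in 5C-G, 3 fell and 3 rose in 5C-C, 1 fell in 5C-E and 3 rose in 5C-F, each against 5C. Among all tested genes the share that passed was 6.34% in 5C against DMSO, and in the removals 25.6%, 35.8%, 2.94% and 10.7% in the same order. In 5C-C total counts only gave 3 lower and 1 higher and the offset 2 lower and 1 higher, and in 5C-G DESeq2 gave 1 lower and 2 higher. With single libraries left out, 0 passed in 5C against DMSO, 1 to 4 in 5C-G (4 without 5C-G A), 3 to 4 in 5C-C, 0 to 1 in 5C-E and 0 to 2 in 5C-F, the 0 being without 5C B in 5C-F and without 5C A, 5C B or 5C-E B in 5C-E. Slc25a13, the mitochondrial exporter of aspartate in liver, had 30.2 and 29.1 FPKM in 5C, 14.5 and 9.34 FPKM in 5C-G, 11.6 and 7.87 FPKM in 5C-C and 16.6 and 13.2 FPKM in 5C-E. Its log2 fold change was -1.45 ± 0.23 in 5C-C (adjusted p = 0.000175) and -1.06 ± 0.22 in 5C-E (0.0128), the latter lost without 5C A, 5C B or 5C-E B and with both limma fits. In 5C-G it was -1.20 and was the gene that fell. Car5a, which supplies bicarbonate to Cps1, had 18 and 12 counts in 5C and 0 in both 5C-C libraries (adjusted p = 0.0252), a call lost without any of these 4 libraries. Mdh2 rose in 5C-C (1.13 ± 0.21, adjusted p = 0.000690). In 5C-F Got1 rose by 0.92 ± 0.16 (adjusted p = 0.00285), lost without 5C B, and Glud1, which releases ammonia from glutamate, by 0.73 ± 0.17 (0.0130), lost without 5C A, 5C B or 5C-F A and with both limma fits.

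Amino acid catabolism delivers the nitrogen, and its list is the longest examined. Of 26 genes, 14 fell and 2 rose in 5C-G, 11 fell and 4 rose in 5C-C, 9 fell in 5C-E and 7 rose in 5C-F, against 5C. In 5C against DMSO 1 rose and 2 fell, a balance that turned with DESeq2 (4 rose and 2 fell), total counts only (3 and 1), no filter (4 and 1), at least 10 counts in every library (3 and 2), the offset (3 and 2) and only the 2 groups compared (8 and 3). With single libraries left out, 12 to 17 passed in 5C-G, 10 to 15 in 5C-C, 5 in every case in 5C-E, and in 5C-F 3 without 5C A, 2 without 5C B and 5 without either 5C-F library. Of all tested genes, 11.5% were lower and 14% higher in 5C-G, 18.6% and 17.2% in 5C-C, 1.76% and 1.18% in 5C-E, 4.98% and 5.69% in 5C-F, and in 5C against DMSO 4.09% and 2.25%. The median log2 fold change of the list was -0.93, -0.41, -0.55 and 0.51 in these removals, where that of all genes was -0.01, 0, 0.01 and -0.01. Bhmt, which remethylates homocysteine, had 5.86 and 6.58 FPKM in DMSO and 40.3 and 39.4 FPKM in 5C, and 12.3 and 9.29 FPKM in 5C-G, 2.30 and 1.81 FPKM in 5C-C and 6.28 and 3.45 FPKM in 5C-E. It rose by 2.61 ± 0.24 in 5C against DMSO (adjusted p = 1.25e-06) and changed by -1.76 ± 0.23 in 5C-G (5.46e-05), -4.12 ± 0.26 in 5C-C (6.63e-08) and -3.10 ± 0.25 in 5C-E (1.88e-06). Tdo2, which opens the ring of tryptophan, changed by -2.28, -2.98 and -2.48 in 5C-G, 5C-C and 5C-E, and Hpd, of tyrosine breakdown, by -1.70, -3.52 and -3.06. Tat, the first enzyme of tyrosine breakdown, fell in 5C against DMSO (-1.32 ± 0.19, adjusted p = 0.000176). In 5C-F Cbs (1.79 ± 0.22, adjusted p = 0.000250) and Gldc (1.26 ± 0.19, 0.000870) rose. Hepatocyte markers moved with these groups as given with Cps1.

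Several transport genes fell in 5C-G, 5C-C and 5C-E, where Cps1 fell too. Of 11 genes for amino acid and urea transport, 5 fell and 1 rose in 5C-G, 5 fell and 1 rose in 5C-C, 3 fell in 5C-E, and 2 rose and 1 fell in 5C-F, while 1 rose in 5C against DMSO. The shares over all tested genes were 25.6%, 35.8%, 2.94%, 10.7% and 6.34% in the same order. Leaving out any library of 5C or DMSO ended the rise in 5C against DMSO. Among the other settings the number passing there went as high as 6. In 5C-E 1 passed without 5C A and 0 without 5C-E B, and in 5C-F 1 passed without 5C A or 5C-F B and 0 without 5C B. Slc38a4, an amino acid carrier of hepatocytes, had 33.5 and 31.3 FPKM in 5C and changed by -1.83 in 5C-G, -1.36 in 5C-C and -1.23 in 5C-E on the log2 scale, the last lost without 5C-E B. Slc7a2, which carries arginine and ornithine, changed by -1.48 in 5C-G and -1.75 in 5C-C. Aqp9, a channel for glycerol and urea, changed by -1.12 in 5C-G and -1.11 in 5C-E, lost in 5C-E without 5C A or 5C-E B.

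Ornithine and arginine also leave the cycle by other routes. Of 9 tested genes for glutamine synthesis and ornithine use, 1 fell in 5C against DMSO, 1 fell in 5C-G, 1 fell and 2 rose in 5C-C, none in 5C-E, and 1 fell and 1 rose in 5C-F. By edgeR 1 of the 9 had an unadjusted p under 0.05 in 5C-E, and DESeq2 passed 0. The balance in 5C-C turned to 2 lower and 1 higher with total counts only and with both limma fits. The call in 5C-G was lost without 5C A, 5C B or 5C-G B, with both limma fits, with the offset and with only the 2 groups compared. Of 8 genes for arginine use, 1 rose in 5C against DMSO, 1 fell and 1 rose in 5C-G, 3 fell and 1 rose in 5C-C, none passed in 5C-E, and 2 fell and 1 rose in 5C-F. By edgeR 3 of the 8 had an unadjusted p under 0.05 in 5C-E, and DESeq2 passed 2. Without 5C A or 5C B, none of either list passed in 5C-F or in 5C against DMSO. For arginine use in 5C-G, 0 passed without 5C A and 5 without 5C-G A, and in 5C-C 2 passed without 5C A or 5C-C B. Over all tested genes 35.8% passed in 5C-C, where 3 of 9 and 4 of 8 did, and 25.6% in 5C-G, where 1 of 9 and 2 of 8 did. In 5C-F that share was 10.7%, in 5C-E 2.94% and in 5C against DMSO 6.34%. Azin1, which raises polyamine synthesis from ornithine, fell in 5C-C (-1.44 ± 0.22, adjusted p = 0.000160), and Gatm, which starts creatine synthesis from arginine, changed by -0.88 ± 0.17 (0.000837).

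Of 14 regulators known to act on urea cycle genes, 7 fell and 2 rose in 5C-G, 7 fell and 1 rose in 5C-C, none passed in 5C-E, 4 rose in 5C-F, and 1 fell in 5C against DMSO. The shares over all tested genes were 25.6%, 35.8%, 2.94%, 10.7% and 6.34% in the same order. In 5C-E 5 of the 14 had an unadjusted p under 0.05 by edgeR, and DESeq2 passed 2. Without 5C A 4 passed in 5C-G and 0 in 5C-F, without 5C B 6 and 0, without 5C-G B 5 in 5C-G, and without 5C-F A or 5C-F B 2 and 1 in 5C-F. Ppargc1a, the coactivator induced by fasting, changed by -2.46 in 5C-G and -2.06 in 5C-C on the log2 scale, at levels under 1 FPKM. Foxo1 changed by -1.47 in 5C-G and -1.53 in 5C-C. Hnf4a, a master regulator of hepatocyte genes, had 21.5 and 18.8 FPKM in 5C, 9.63 and 8.16 FPKM in 5C-G and 17.4 and 13.4 FPKM in 5C-C, and fell in 5C-G (-1.05 ± 0.18, adjusted p = 0.000454). Cebpb rose in 5C-G (1.34 ± 0.28, adjusted p = 0.00232) and in 5C-C (1.48 ± 0.28, 0.000693), and with the GC and length offset it passed in neither. Cebpa had 37.6 and 39.2 FPKM in DMSO and 19.8 and 19.5 FPKM in 5C, and fell in 5C (-1.04 ± 0.19, adjusted p = 0.00160).

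**Figure D5:**
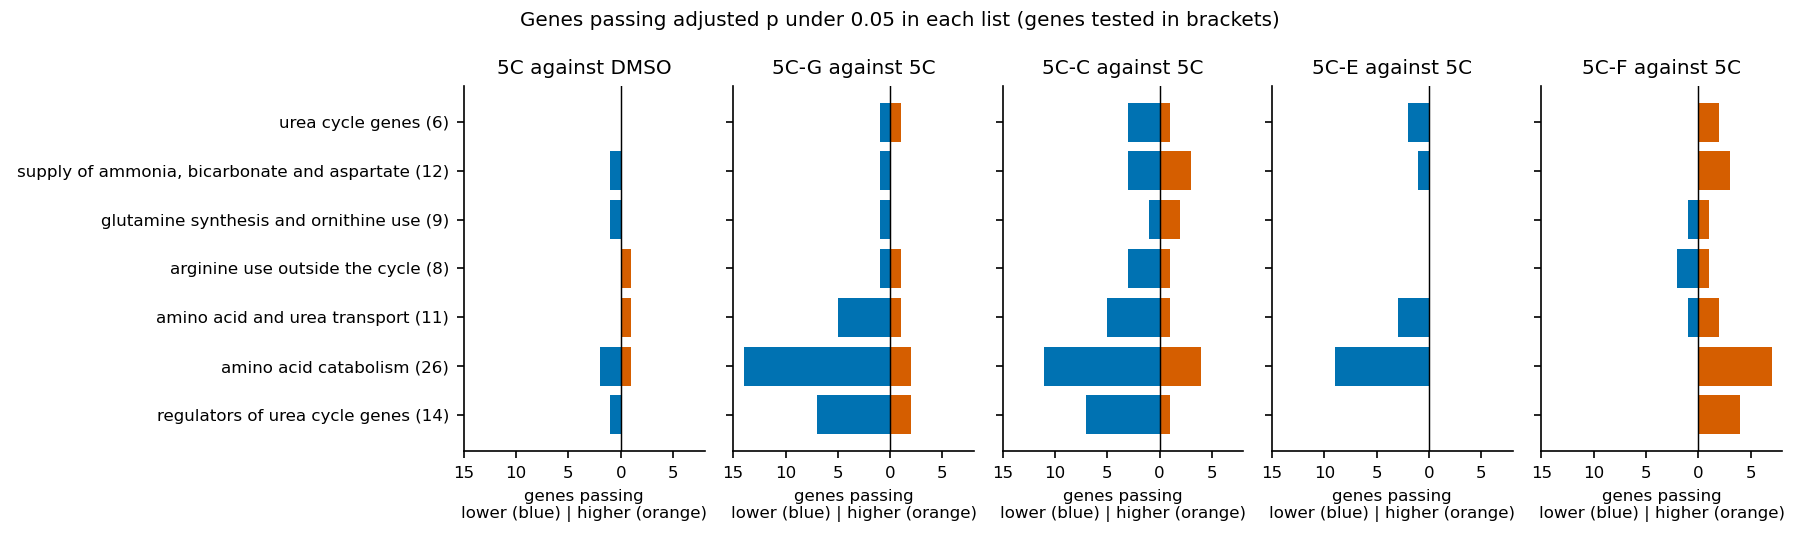
Number of genes that passed at an adjusted p under 0.05 in each list, lower to the left and higher to the right, for 5C against DMSO and 4 removals against 5C; the number of genes tested is in brackets. Amino acid catabolism has the longest bars, with 14 of 26 genes lower in 5C-G and 7 higher in 5C-F.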

How the data were processed

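The authors sequenced paired-end libraries on an Illumina NovaSeq instrument and mapped reads to GRCm39. The submitters' processing notes name featureCounts, Subread and DESeq2, and annotation release, strand handling and the versions of the aligner and counter are not given in the sources used here. The deposited counts are whole numbers without normalization, and the authors' FPKM are these counts scaled by gene length and by the column's total. Groups came from the labels. Columns name a group but not which sample, so the letters A and B follow column order and pair nothing. No column was left unused.

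Counts were tested with edgeR 4.0.16 in R 4.3.3 (TMM factors, filterByExpr with a minimum count of 10, glmQLFTest, Benjamini-Hochberg over 19884 genes). All 13 libraries entered 1 fit of group means with 6 residual degrees of freedom and a common biological coefficient of variation of 0.261. Alternatives were DESeq2 1.42.0, total counts for scaling, limma 3.58.1 on log2(FPKM + 1) and log2(FPKM + 0.1), no filter, at least 10 counts in every library, only the groups compared, an offset for GC content and length (99.51% of tested genes had both) and leaving out each library. The main edgeR fit, the offset fit, DESeq2 and limma with 1 added before the log were run on simulated data first. The other alternatives were not. Correlations used log2 CPM with a prior count of 2. No pair of libraries in a group was close enough to be a duplicate. Dpep2, with different gene IDs in the tables, was left out of limma.

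The members and all gene lists were chosen with earlier results of these data known. Named were the 6 members, Slc25a2, up to 4 passing genes per list and comparison by size of change, and the 3 genes closest to each member. Intervals and floors cover counting error only, as reads carry no molecular identifiers. Some genes that the naming rule covers, 1 of them of the cycle, are not reported here.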

Additional observations from a re-analysis of the deposited data

How the results depend on the processing

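The falls of Cps1 in 5C-G and 5C-C against 5C and against DMSO kept their direction and their side of the threshold under every alternative run. No paired analysis was possible because the columns carry no replicate numbers of the samples. Otc gave no value with at least 10 counts in every library, since it then left the test. Total counts alone shifted the median gene by -0.13 (log2) in 5C-G and -0.15 in 5C-C against 5C and by 0.15 in 5C-E against DMSO. With a library left out, its group held a lone library, which is then assumed to vary like the other groups. In most of these fits fewer genes passed than with all 13 libraries, but more did without 5C-G A or 5C-C A. The cause of a lost call was not tested.

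Of the 6 genes, those passing were 1 in 5C-E against 5C, 1 in 5C-E against DMSO, 0 in 5C-F against 5C and 1 in 5C-G against DMSO with limma on log2(FPKM + 1), and 1, 1, 0 and 1 with limma on log2(FPKM + 0.1). Of 19884 tested genes, 412, 1652, 1135 and 1455 passed there with the first fit and 365, 1430, 1015 and 1246 with the second. With the GC and length offset 1 passed in 5C-F against 5C and 2 in 5C-F against DMSO, and with total counts only 1 passed in 5C-F against 5C. Of 19884 tested genes, 2093, 2998 and 1910 passed in the same order. With only the 2 groups compared, 1 passed in 5C against DMSO, 1 in 5C-G against 5C and 1 in 5C-G against DMSO. Of all genes tested in those fits, 5028 of 16487, 4115 of 16496 and 1205 of 16360 passed. With single libraries left out, the number passing against 5C ran from 1 to 2 in 5C-G, 1 to 3 in 5C-C and 0 to 1 in 5C-E and was 0 in 5C-F, and against DMSO it ran from 1 to 2 in 5C-G, 1 to 3 in 5C-C and 0 to 2 in 5C-E and was 0 in 5C-F.

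Values that changed sign were near 0 or had not passed, apart from those of Aldh4a1 and Ddah2 in 5C-C. For Asl in 5C against DMSO the log2 fold change was 0.074 with total counts, 0.068 and 0.074 with the limma fits, 0.011 with no filter, 0.028 with at least 10 counts in every library and 0.083 with the offset. For Ass1 there it was 0.036 with total counts, 0.038 and 0.038 with the limma fits and 0.016 with the offset. The offset also gave -0.25 for Ass1 and 0.10 for Cps1 in 5C-F against 5C, -0.24 for Ass1 in 5C-F and 0.18 for Slc25a15 in 5C-G against DMSO, 0.28 for Slc25a15, -0.022 for Aldh4a1 and -0.37 for Ddah2 in 5C-C against 5C. With single libraries left out, 5C against DMSO ran from -0.020 to 0.034 for Asl and from -0.14 to 0.081 for Ass1. Against 5C, Slc25a15 ran from -0.16 to 0.0051 and Nags from -0.47 to 0.19 in 5C-C, Nags from -0.38 to 0.032 in 5C-G, and Cps1 from -0.46 to 0.23 and Slc25a15 from -0.17 to 0.36 in 5C-F. In 5C-F against DMSO, Cps1 ran from -0.030 to 0.66, Otc from -2.09 to 0.63 and Ass1 from -0.037 to 0.20.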
